A study of Mus musculus with 4 samples.

Results

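Collagen chain genes were taken as every gene whose probe set carried 1 symbol of the form Col, number, a, number, and a gene with several such probe sets was represented by the one of highest average level. They numbered 44 of the 19938 genes measured, from 46 probe sets. Membership was set by symbol alone, although the family was chosen with earlier results of these data known. The members comprised 11 fibrillar chains, 6 basement membrane (type IV) chains, 9 FACIT chains (fibril-associated collagens with interrupted triple helices) and 18 others. The cells were cultures of C57BL/6 mouse cells, with 1 Affymetrix array for each of 4 groups: mesenchymal stem cells (MSC) flushed from femur and tibia marrow, selected by adherence to plastic and grown in Coon's modified F12 medium with basic fibroblast growth factor (bFGF) at 1 ng/ml, the same kind of culture without bFGF, osteoblasts released by trypsin and collagenase from the calvariae of newborn mice (the cells of the later digestions pooled) and grown in DMEM, and embryonic stem cells. Both MSC media and the osteoblast medium held fetal calf serum; the medium of the embryonic stem cells, the age of the marrow donors, the passage number and any pooling of animals are not stated in the labels. No transgene, deletion or sorting step is named for any group.

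Collagens are extracellular proteins of 3 chains wound into a triple helix. Fibrillar chains form the rope-like fibrils that carry load, and type I, of Col1a1 and Col1a2 chains, is the main protein of bone matrix. Type IV chains build the sheet of basement membranes, FACIT chains sit on the surface of fibrils, and other chains form beaded filaments, anchoring fibrils and short-chain networks or span the cell membrane. Collagen genes are strongly used by fibroblasts, osteoblasts and other stromal cells.

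Levels are log2 values, so a difference of 1 is a 2-fold difference, and every difference below is the log2 level of the group named first minus that of the second. A member was counted in a comparison when the higher of its levels lay above the floor, the median of all probe sets with 1 symbol on that array (6.32, 6.29, 6.46 and 6.46 for MSC with bFGF, MSC without bFGF, osteoblasts and embryonic stem cells), and was called higher or lower at 2-fold. With 1 array per group there was no replicate check and no test. As technical yardsticks, the differences of probe sets of the same gene varied with an SD of 0.19 between the MSC arrays and of 0.26 to 0.31 in the other comparisons, which measures the array and not the cultures. The identity of the cells was checked on marker genes. The embryonic stem cell array had the pluripotency factors Pou5f1 at 10.63 and Nanog at 9.24, although Zfp42, at 6.02, lay under the floor. On the osteoblast array 1 of 6 measured osteoblast markers was above the floor, the bone matrix gene Sparc at 12.85, and the defining markers Sp7 (5.36), Alpl (6.03) and Ibsp (4.53) were not. Of 9 measured marrow stromal markers 6 were above the floor in MSC with bFGF and 4 in MSC without bFGF, with Kitl, Pdgfra, Pdgfrb and Vcam1 above it in both. Osteoblasts had 7 of the 9 above the floor and embryonic stem cells 6, so the count did not set the MSC arrays apart. On each array 49.6% to 50.0% of all genes were above the floor. Of the 3 defining marrow stromal markers, Pdgfra was above the floor in MSC with and without bFGF (7.63 and 7.85), while Cxcl12 (5.75 and 5.81) and Lepr (4.99 and 4.61) were not.

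The sequences before the start of 3 chains that differed widely between arrays are shown to give their promoters, as the 250 bases upstream of the start in the RefSeq annotation of GRCm38.p6, 5′ to 3′ on the strand of the gene. Capitals mark the CCAAT box (spelled CCAAT), the TATA box (spelled TATAAA) and the GC box (spelled GGGCGG), each searched on both strands, and none of the marked matches overlapped another. Of 44 members 35 had a promoter in the table, and Col1a1 and Col12a1 did not. The window of Col3a1 lies at chr1:45311288-45311537 on the + strand, that of Col1a2 at chr6:4505368-4505617 on the + strand and that of Col8a1 at chr16:57754738-57754987 on the - strand.
Col3a1: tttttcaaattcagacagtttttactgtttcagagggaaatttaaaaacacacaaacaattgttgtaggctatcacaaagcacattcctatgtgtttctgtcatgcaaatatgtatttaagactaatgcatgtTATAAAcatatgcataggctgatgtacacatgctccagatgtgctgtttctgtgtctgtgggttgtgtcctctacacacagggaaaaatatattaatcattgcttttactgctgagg
Col1a2: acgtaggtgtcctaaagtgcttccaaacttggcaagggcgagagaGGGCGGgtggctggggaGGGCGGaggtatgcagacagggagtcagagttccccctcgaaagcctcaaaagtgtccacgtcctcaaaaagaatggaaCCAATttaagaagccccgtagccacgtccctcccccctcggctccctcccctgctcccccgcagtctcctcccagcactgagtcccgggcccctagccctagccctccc
Col8a1: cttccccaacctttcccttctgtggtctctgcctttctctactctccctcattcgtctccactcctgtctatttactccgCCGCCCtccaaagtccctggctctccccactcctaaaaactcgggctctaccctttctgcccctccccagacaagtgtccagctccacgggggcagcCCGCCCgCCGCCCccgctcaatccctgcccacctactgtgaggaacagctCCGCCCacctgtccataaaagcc
Col3a1 had a TATA box match beginning 117 bases before the start. Col1a2 had GC box matches at 205 and 188 bases and a CCAAT box match at 109 bases before the start, and Col8a1 had 4 GC box matches on the reverse strand, the nearest at 23 bases. The CCAAT box was found in 34.2% of the 38 windows of members and in 33.8% of all 32851 promoter windows, the TATA box in 13.2% and 12.4%, and the GC box in 57.9% and 32.7%. A match is a description of letters and not a site.

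Several members are neighbours in the genome, among them Col3a1 with Col5a2, Col6a2 with Col6a1, and the type IV pairs Col4a1 with Col4a2, Col4a4 with Col4a3 and Col4a6 with Col4a5. The annotated starts of Col4a1 and Col4a2, which are read in opposite directions, lie 21 bases apart. That of Col4a1, on the - strand, has the higher coordinate, so both annotated transcripts include the bases in capitals below. Whether this closeness bears on the levels of the pair was not tested. The 30 bases around both starts are shown. They lie at chr8:11312801-11312830 of GRCm38.p6, and the + strand is given with both starts and the bases between them in capitals.
Col4a1 and Col4a2: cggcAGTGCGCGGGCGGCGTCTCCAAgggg

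Across the 4 arrays, osteoblasts had the highest level for 34 of 44 collagen chain genes and MSC with bFGF the lowest for 32. For comparison, osteoblasts were highest for 29.6% of all genes and MSC with bFGF lowest for 25.1%. Above the floor were 27 members in MSC with bFGF, 34 in MSC without bFGF, 35 in osteoblasts and 30 in embryonic stem cells. Of all genes 49.6% to 50.0% were above it on each array. Of all members, 25 were above the floor on every array, 38 on at least 1 and 6 on none. Among all 19938 genes, 11678 were above the floor on at least 1 array. In cultures measured in bulk, fewer cells of a type and less RNA per cell cannot be told apart.

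**Figure D1:**
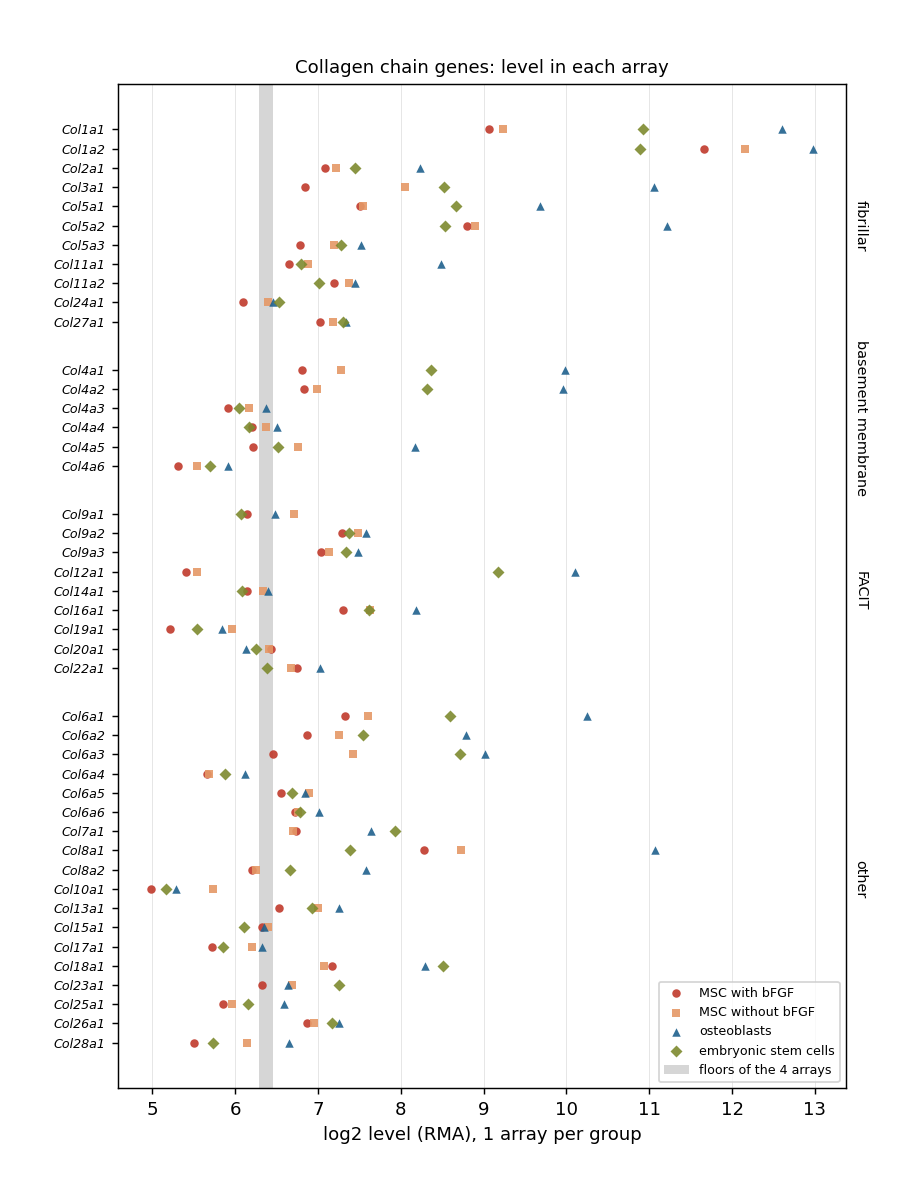
Log2 level of each of the 44 collagen chain genes (rows, grouped by class) on the 4 arrays, 1 point per array, with the range of the floors in grey. Osteoblasts lie to the right for most fibrillar chains, Col4a1, Col4a2, Col6a1 and Col8a1, while many other chains crowd near the floors in every array.

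The fibrillar chains had signal above the floor in at least 1 array for all 11 genes, and osteoblasts were highest for 10. Col1a1, the more abundant chain of the type I trimer, stood at 9.06 in MSC with bFGF, 9.23 in MSC without bFGF, 12.60 in osteoblasts and 10.92 in embryonic stem cells. Col1a2, its partner chain, stood at 11.66 in MSC with bFGF, 12.16 in MSC without bFGF, 12.98 in osteoblasts and 10.89 in embryonic stem cells. Both type I chains were highest in osteoblasts, but Col1a1 was lowest in the MSC arrays and Col1a2 was lowest in embryonic stem cells. Col3a1, the type III chain of thin, extensible fibrils and of healing tissue, had levels of 6.85 with bFGF and 8.05 without bFGF in the MSC arrays, 11.06 in osteoblasts and 8.52 in embryonic stem cells. It had the widest span of the fibrillar chains, 4.21, and was the fibrillar chain with the largest separation of the MSC arrays from each other.

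Col5a1, a type V chain that starts fibril assembly, stood at 7.51 in MSC with bFGF, 7.55 in MSC without bFGF, 9.68 in osteoblasts and 8.67 in embryonic stem cells. Col5a2, its partner, stood at 8.80 in MSC with bFGF, 8.90 in MSC without bFGF, 11.22 in osteoblasts and 8.53 in embryonic stem cells. Col5a3, a minor type V chain, had levels of 6.79 with bFGF and 7.19 without bFGF in the MSC arrays, 7.52 in osteoblasts and 7.28 in embryonic stem cells. Type V chains were highest in osteoblasts and nearly level between the MSC arrays, except Col5a3. Col11a1, a chain of the core of cartilage fibrils that bone cells also use, had levels of 6.65 with bFGF and 6.88 without bFGF in the MSC arrays, 8.49 in osteoblasts and 6.80 in embryonic stem cells. Col11a2, its partner in cartilage fibrils, stood at 7.20 in MSC with bFGF, 7.38 in MSC without bFGF, 7.45 in osteoblasts and 7.01 in embryonic stem cells. Col2a1, the main collagen of cartilage, stood at 7.08 in MSC with bFGF, 7.22 in MSC without bFGF, 8.23 in osteoblasts and 7.45 in embryonic stem cells. Col2a1 and Col11a1 followed the other fibrillar chains in being highest in osteoblasts, and Col11a2 spanned only 0.44. Col27a1, a chain of developing cartilage, had levels of 7.02 with bFGF and 7.18 without bFGF in the MSC arrays, 7.34 in osteoblasts and 7.30 in embryonic stem cells. Col24a1, a chain of developing bone, had levels of 6.09 with bFGF and 6.40 without bFGF in the MSC arrays, 6.46 in osteoblasts and 6.53 in embryonic stem cells. These minor fibrillar chains differed little between arrays, and Col24a1 was the 1 fibrillar chain that was highest in embryonic stem cells.

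Among basement membrane chains, osteoblasts were highest for all 6. Col4a1, the common type IV chain, stood at 6.81 in MSC with bFGF, 7.28 in MSC without bFGF, 9.98 in osteoblasts and 8.36 in embryonic stem cells. Col4a2, the chain it assembles with, stood at 6.83 in MSC with bFGF, 6.99 in MSC without bFGF, 9.96 in osteoblasts and 8.32 in embryonic stem cells. Levels of this pair went the same way in all 4 arrays, with osteoblasts first, embryonic stem cells second and both MSC arrays last. Col4a5, a chain of the specialised basement membranes of kidney and other organs, had levels of 6.22 with bFGF and 6.76 without bFGF in the MSC arrays, 8.17 in osteoblasts and 6.52 in embryonic stem cells. Col4a4 had levels of 6.21 with bFGF and 6.37 without bFGF in the MSC arrays, 6.51 in osteoblasts and 6.17 in embryonic stem cells. Col4a5 was under the floor in MSC with bFGF, and Col4a4 was above it only in MSC without bFGF and osteoblasts, by a small margin. Col4a3 and Col4a6 were under the floor on every array.

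Col12a1, a FACIT chain of dense connective tissue and bone surfaces, stood at 5.41 in MSC with bFGF, 5.54 in MSC without bFGF, 10.10 in osteoblasts and 9.18 in embryonic stem cells. Neither MSC array had it above the floor, and the other arrays had it well above. Col16a1 stood at 7.30 in MSC with bFGF, 7.63 in MSC without bFGF, 8.19 in osteoblasts and 7.62 in embryonic stem cells. Col22a1, a chain of tissue junctions such as that of muscle and tendon, stood at 6.75 in MSC with bFGF, 6.68 in MSC without bFGF, 7.03 in osteoblasts and 6.38 in embryonic stem cells. Col16a1 was highest in osteoblasts and lowest in MSC with bFGF. The type IX chains, which coat cartilage fibrils, differed little. Col9a1 had levels of 6.14 with bFGF and 6.71 without bFGF in the MSC arrays, 6.48 in osteoblasts and 6.07 in embryonic stem cells. Col9a2 had levels of 7.29 with bFGF and 7.49 without bFGF in the MSC arrays, 7.58 in osteoblasts and 7.37 in embryonic stem cells. Col9a3 had levels of 7.04 with bFGF and 7.13 without bFGF in the MSC arrays, 7.49 in osteoblasts and 7.34 in embryonic stem cells. Osteoblasts were highest for Col9a2 and Col9a3 and MSC without bFGF for Col9a1. Col14a1, a fibril-surface chain of tendon and skin, stood at 6.15 in MSC with bFGF, 6.34 in MSC without bFGF, 6.40 in osteoblasts and 6.08 in embryonic stem cells. Col20a1 stood at 6.43 in MSC with bFGF, 6.41 in MSC without bFGF, 6.13 in osteoblasts and 6.25 in embryonic stem cells. Col20a1 was the 1 member of the 44 that was highest in MSC with bFGF, by a margin of 0.02 over MSC without bFGF. Col19a1 was under the floor throughout.

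Type VI chains form beaded filaments around cells. Col6a1 stood at 7.33 in MSC with bFGF, 7.61 in MSC without bFGF, 10.25 in osteoblasts and 8.59 in embryonic stem cells. Col6a2 stood at 6.87 in MSC with bFGF, 7.25 in MSC without bFGF, 8.79 in osteoblasts and 7.54 in embryonic stem cells. Col6a3, the large chain that completes the classical trimer, stood at 6.46 in MSC with bFGF, 7.42 in MSC without bFGF, 9.02 in osteoblasts and 8.71 in embryonic stem cells. All these were highest in osteoblasts, and Col6a3 was the one for which embryonic stem cells came closest to osteoblasts. Col6a5 had levels of 6.55 with bFGF and 6.89 without bFGF in the MSC arrays, 6.85 in osteoblasts and 6.69 in embryonic stem cells. Col6a6 had levels of 6.72 with bFGF and 6.76 without bFGF in the MSC arrays, 7.01 in osteoblasts and 6.79 in embryonic stem cells. Col6a5 and Col6a6 spanned only 0.34 and 0.29 over the arrays, and Col6a4 was under the floor. Second probe sets of Col6a5 and Col6a6 lay under the floor everywhere, at 4.12 to 4.97 and at 5.00 to 5.37.

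Col8a1, a short-chain network collagen of vessel walls and the cornea, stood at 8.28 in MSC with bFGF, 8.73 in MSC without bFGF, 11.07 in osteoblasts and 7.39 in embryonic stem cells. Col8a2, its partner chain, stood at 6.21 in MSC with bFGF, 6.25 in MSC without bFGF, 7.58 in osteoblasts and 6.66 in embryonic stem cells. Col8a1 had its lowest level in embryonic stem cells and Col8a2 in MSC with bFGF. Col10a1, the short chain of hypertrophic cartilage, was under the floor on all arrays. Col18a1, a multiplexin of basement membranes and the source of the fragment endostatin, had levels of 7.17 with bFGF and 7.07 without bFGF in the MSC arrays, 8.29 in osteoblasts and 8.51 in embryonic stem cells. Col7a1, the chain of the anchoring fibrils of skin, had levels of 6.73 with bFGF and 6.70 without bFGF in the MSC arrays, 7.64 in osteoblasts and 7.93 in embryonic stem cells. Both were highest in embryonic stem cells, unlike most members, with osteoblasts close behind. Col15a1, the other multiplexin, stood at 6.32 in MSC with bFGF, 6.40 in MSC without bFGF, 6.35 in osteoblasts and 6.11 in embryonic stem cells. It stayed near the floor and spanned only 0.28.

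Transmembrane collagens were near the floor or modestly above it. Col13a1 stood at 6.53 in MSC with bFGF, 7.0 in MSC without bFGF, 7.25 in osteoblasts and 6.93 in embryonic stem cells. Col23a1 stood at 6.32 in MSC with bFGF, 6.69 in MSC without bFGF, 6.64 in osteoblasts and 7.25 in embryonic stem cells. Col25a1, a chain of neurons, stood at 5.86 in MSC with bFGF, 5.96 in MSC without bFGF, 6.59 in osteoblasts and 6.16 in embryonic stem cells. Osteoblasts were highest for Col13a1 and Col25a1 and embryonic stem cells for Col23a1, and Col17a1, a hemidesmosome protein of epithelia, was under the floor. Col26a1 had levels of 6.87 with bFGF and 6.95 without bFGF in the MSC arrays, 7.25 in osteoblasts and 7.17 in embryonic stem cells. Col28a1 had levels of 5.51 with bFGF and 6.14 without bFGF in the MSC arrays, 6.65 in osteoblasts and 5.73 in embryonic stem cells. Col28a1 was above the floor only in osteoblasts. The 6 members without signal anywhere, Col4a3, Col4a6, Col6a4, Col10a1, Col17a1 and Col19a1, had levels between 4.99 and 6.37.

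The first comparison is that of MSC grown with bFGF and MSC grown without it. Most collagen chain genes were slightly lower with bFGF, and Col3a1 stood out, at 6.85 in MSC with bFGF against 8.05 in MSC without bFGF, 2.3-fold lower. Col6a3 followed at 6.46 against 7.42, a difference of -0.97 just short of 2-fold. Of 44 members 40 were below 0, among them all 11 fibrillar and all 6 type IV chains, with a median over all members of -0.22. The sizes were small: 21 of 44 differences were smaller than the 0.19 by which probe sets of 1 gene varied. No member was 2-fold higher and 1, Col3a1, was lower, of 34 above the floor, while 4.09% of all genes above the floor were higher and 0.467% lower.

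Of all 19938 genes 57.0% were below 0 in this comparison, with a median of -0.06, and the 1190 genes of the odorant and pheromone receptor families, which cultured cells hardly use, had a median of -0.16. After removal of a loess curve of the difference on mean level, 36 of 44 members were below 0 with a median of -0.17, Col3a1 stood at -1.19 and Col6a3 at -0.95. Medians by class were -0.18 for fibrillar, -0.24 for basement membrane, -0.19 for FACIT and -0.31 for other chains.

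Within the fibrillar class the differences were uneven. Type I chains differed by -0.17 (Col1a1) and -0.50 (Col1a2), and type V chains by -0.04 (Col5a1), -0.10 (Col5a2) and -0.40 (Col5a3). The neighbours Col3a1 and Col5a2 thus differed by -1.20 and -0.10. In the beaded filament group Col6a1 and Col6a2 differed by -0.28 and -0.38, less than Col6a3. Among members with signal of other types, Col9a1 (-0.57), Col4a5 (-0.54), Col13a1 (-0.48), Col4a1 (-0.47) and Col8a1 (-0.45) came next. The values of Col19a1 (-0.75), Col10a1 (-0.74) and Col28a1 (-0.63) came from levels under the floor on both arrays. The 4 members above 0 were Col18a1, Col22a1, Col7a1 and Col20a1, at most 0.10 higher.

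**Figure D2:**
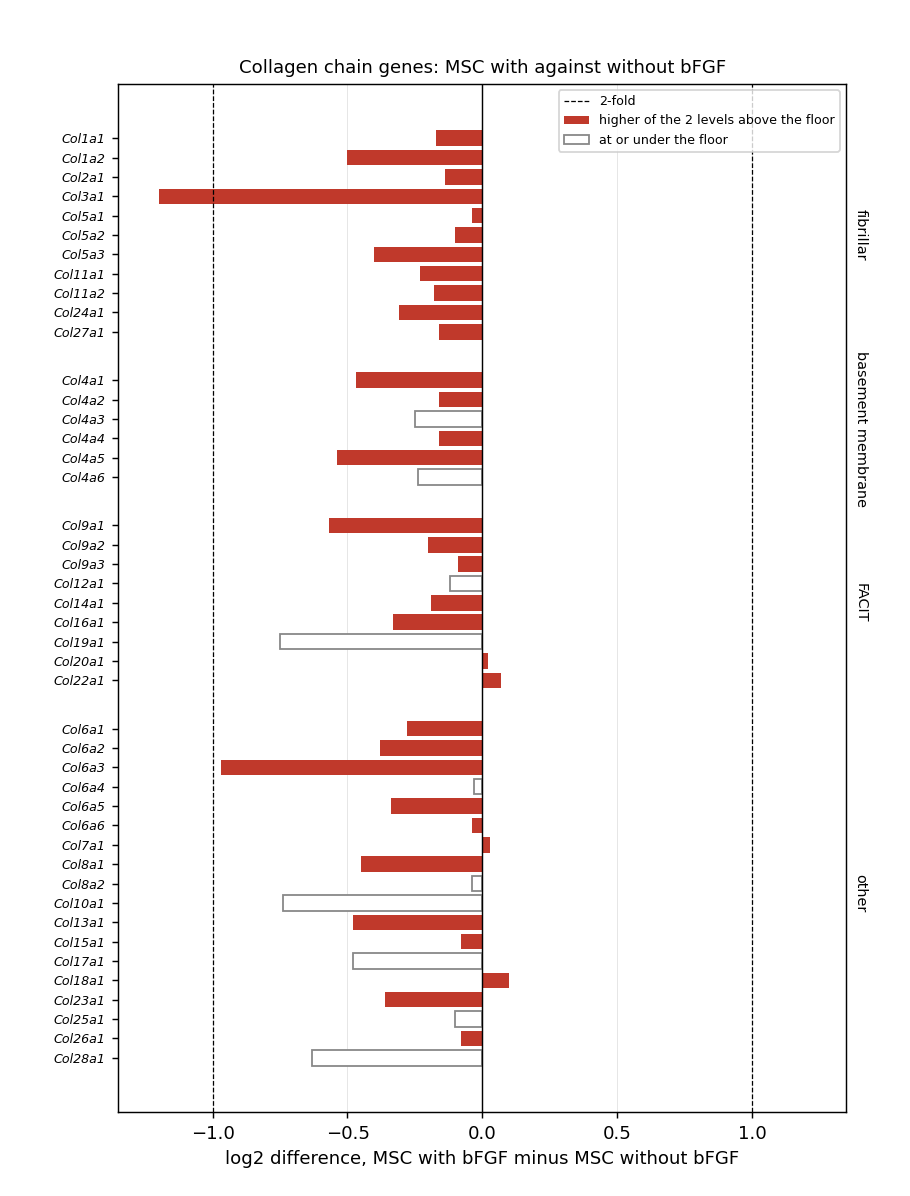
Log2 difference of each collagen chain gene, MSC with bFGF minus MSC without bFGF, as bars by class, with dashed lines at 2-fold and open bars where both levels were at or under the floor. Bars point left for 40 of 44 genes, and only that of Col3a1 passes 2-fold.

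Macrophage genes differed in the same comparison. Of 14 measured macrophage markers 13 were 2-fold higher in MSC with bFGF and none lower, against 4.09% and 0.467% of all genes. The markers had a median difference of 2.77, and 14 were above the floor with bFGF against 11 without. Their summed linear level was 14400 in MSC with bFGF and 2200 in MSC without bFGF. The macrophage receptor Csf1r stood at 10.56 with bFGF against 7.31 without, and Adgre1 at 7.71 against 5.69, the second value under the floor. The part of these cells in the collagen differences was not tested. Of 9 marrow stromal markers, 2 were higher with bFGF (Nt5e by 1.31 and Eng by 1.06) and 1 was lower (Pdgfrb, by -1.12). Against this stand the same 4.09% and 0.467% of all genes. The median difference of the stromal markers was 0.07.

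Compared with osteoblasts, MSC had lower levels of nearly all abundant collagens. In MSC with bFGF, Col12a1 was 25.7-fold lower, Col3a1 18.5-fold, Col1a1 11.6-fold, Col4a1 8.97-fold and Col4a2 8.76-fold. In MSC without bFGF the values for the same genes were 23.6-fold, 8.04-fold, 10.3-fold, 6.48-fold and 7.81-fold lower. With bFGF 43 of 44 members were below 0 (median -0.73), against 54.9% of all genes (median -0.07). Without bFGF 37 were below 0 (median -0.39), against 48.0% of all genes (median 0.03). The level of Col12a1 in the MSC arrays lay under the floor, so its fold was set by values at background there.

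At 2-fold, 18 of 36 members above the floor were lower in MSC with bFGF and none higher, where 9.71% of all genes above the floor were lower and 7.5% higher. In MSC without bFGF 16 of 37 were lower and none higher, where 13.3% of all genes were lower and 8.17% higher. The counts were the same with no floor. These comparisons share the osteoblast array, so they do not support each other.

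By class, among members above the floor, lower at 2-fold in MSC with bFGF were 7 of 11 fibrillar, 3 of 4 basement membrane, 1 of 7 FACIT and 7 of 14 other chains. In MSC without bFGF they were 6 of 11, 3 of 4, 1 of 7 and 6 of 15. Of all genes above the floor 9.71% were lower with bFGF and 13.3% without, so the FACIT count was near that share. The 1 FACIT chain was Col12a1, under the floor in both MSC arrays. The fibrillar chains with differences under 2-fold were Col5a3 (-0.74 with and -0.33 without bFGF), Col11a2 (-0.25 and -0.07), Col24a1 (-0.37 and -0.05) and Col27a1 (-0.32 and -0.16). Col1a2 differed by -1.33 with bFGF and by -0.82 without. In the type VI group Col6a1 differed by -2.92 and -2.64, Col6a2 by -1.92 and -1.54, and Col6a3 by -2.56 and -1.59. Col8a1 differed by -2.78 and -2.33, Col8a2 by -1.38 and -1.33, Col4a5 by -1.95 and -1.41, Col18a1 by -1.12 and -1.22, and Col28a1 by -1.14 and -0.50. The 1 member above 0 with bFGF was Col20a1, at 0.30.

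**Figure D3:**
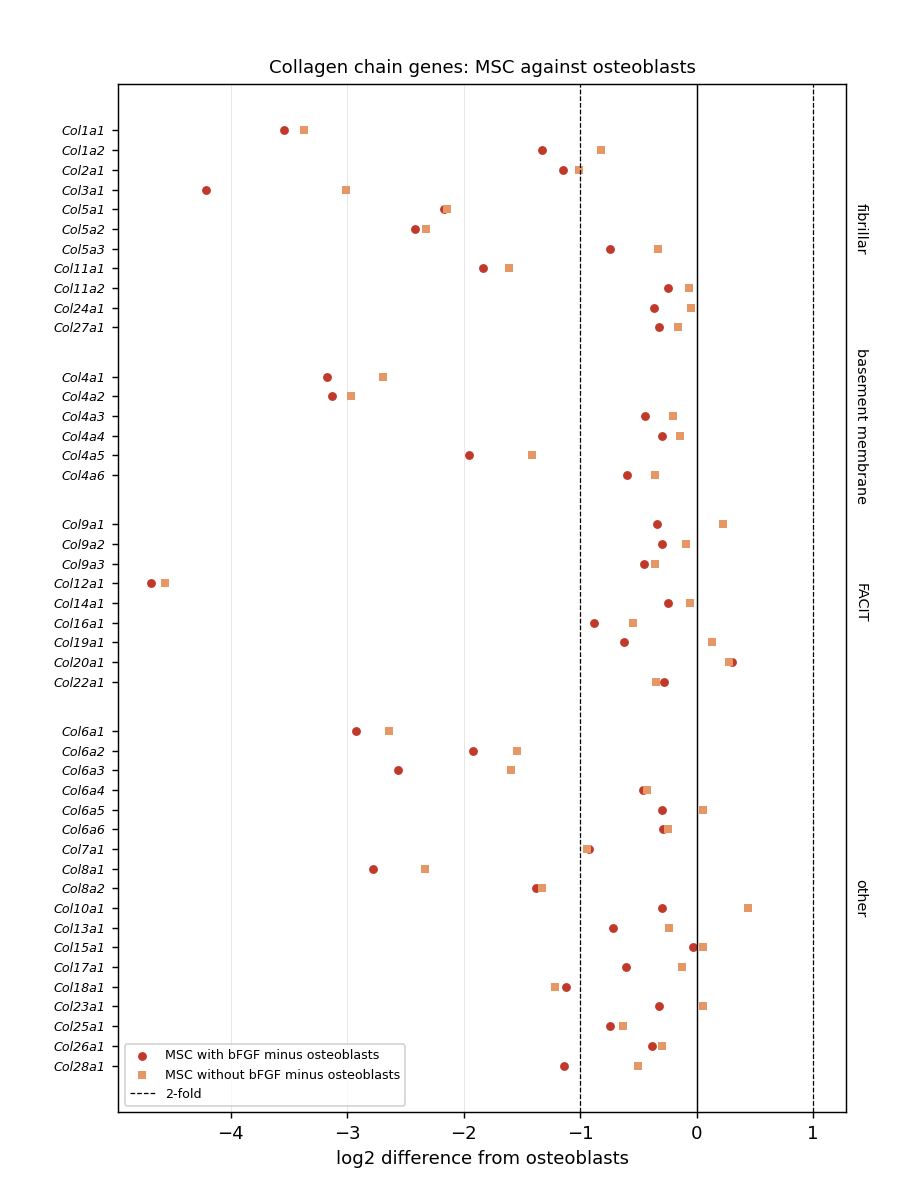
Log2 difference of each collagen chain gene from osteoblasts in MSC with bFGF and in MSC without bFGF, by class, with dashed lines at 2-fold. Points left of -3 are Col1a1, Col3a1 and Col12a1 in both MSC arrays and Col4a1 and Col4a2 in MSC with bFGF.

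Marker lists of other cell types differed in the same comparisons. Macrophage markers had a summed linear level of 14400 in MSC with bFGF and 2200 in MSC without bFGF, against 41300 in osteoblasts, where all 14 were above the floor. Smooth muscle and pericyte markers had 359 and 393 against 9910, with 1, 1 and 4 of 7 above the floor. Endothelial markers were above the floor for 0 of 7 genes in all these arrays. Whether cells of these types bear on the collagen levels was not tested, and the culture medium differed between MSC and osteoblasts, which cannot be told apart from the cell type.

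Compared with embryonic stem cells, collagens did not go 1 way. In MSC with bFGF 34 of 44 members were below 0 (median -0.30), against 49.2% of all genes. For MSC grown without bFGF the count was 23 (median -0.06), against 43.9% of all genes. Col12a1, not above the floor in MSC and at 9.18 in embryonic stem cells, was 13.6-fold lower with bFGF and 12.5-fold lower without, folds set by background in MSC. Col6a3 was 4.78-fold and 2.45-fold lower, and Col1a1 3.65-fold and 3.24-fold lower. Col1a2 and Col8a1 went the other way, higher by 0.77 and 0.89 with bFGF and by 1.27 and 1.34 without.

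At 2-fold, 10 of 32 members above the floor were lower in MSC with bFGF and none higher, where 10.6% of all genes above the floor were lower and 11.3% higher. In MSC without bFGF 8 of 36 were lower and 2 higher, where 11.8% of all genes were lower and 10.4% higher. Lower in MSC with bFGF were Col1a1, Col3a1, Col5a1, Col4a1, Col4a2, Col6a1, Col6a3, Col7a1, Col12a1 and Col18a1. Of these, Col3a1 and Col6a1 differed by -0.46 and -0.98 in MSC without bFGF and were not past 2-fold there. The anchoring fibril chain Col7a1 differed by -1.21 and -1.23, and Col18a1 by -1.34 and -1.44, in each case with bFGF and without it.

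Osteoblasts had higher levels than embryonic stem cells for 39 of 44 members, with a median of 0.38, where 44.8% of all genes were below 0 and their median was 0.07. Col8a1 was 12.7-fold higher, Col5a2 6.45-fold, Col3a1 5.84-fold and Col1a2 4.26-fold. At 2-fold 12 of 35 members above the floor were higher and none lower, where 12.3% of all genes above the floor were higher and 8.83% lower. Among members above the floor, higher at 2-fold were 6 of 11 fibrillar chains, 3 of 4 type IV chains, 0 of 6 FACIT chains and 3 of 14 others. Col1a1 was higher by 1.67, Col11a1 by 1.68, Col6a1 by 1.66, Col6a2 by 1.25, Col4a1 by 1.62, and Col4a2 and Col4a5 by 1.64 each. Col12a1 and Col6a3 differed by 0.92 and 0.30 only, and Col23a1, Col7a1, Col18a1, Col20a1 and Col24a1 were below 0, by at most 0.61 in size.

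**Figure D4:**
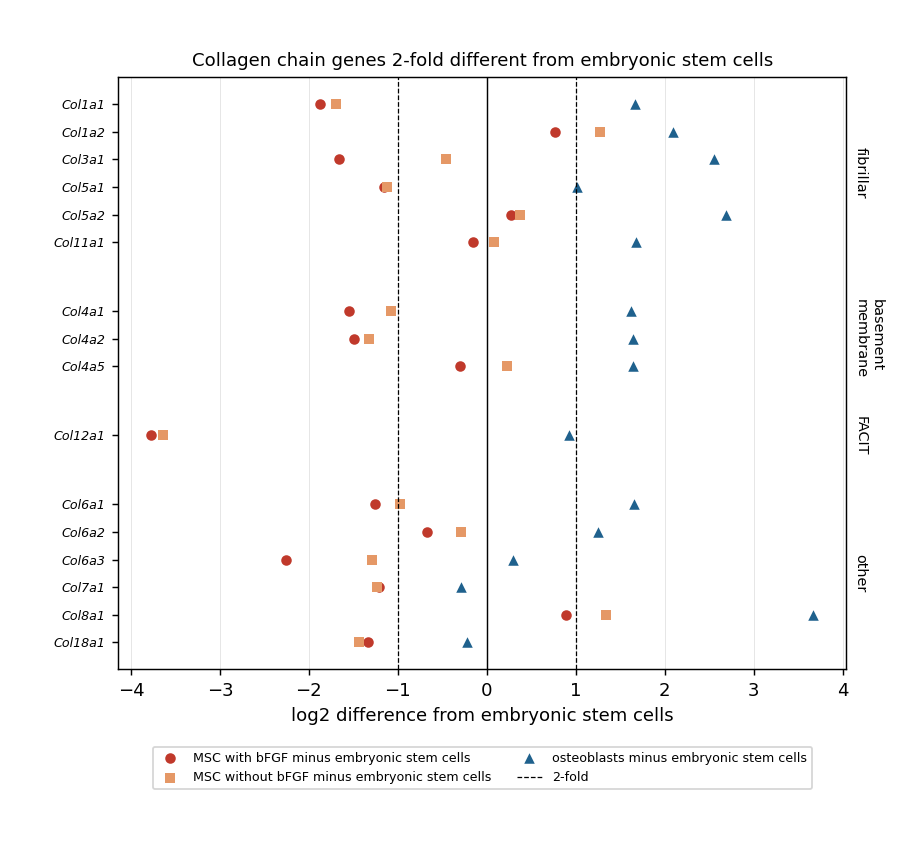
Log2 difference from embryonic stem cells in MSC with bFGF, MSC without bFGF and osteoblasts, for the 16 collagen chain genes past 2-fold in any of these comparisons. Osteoblasts lie to the right of both MSC arrays in every row, and Col1a2, Col5a2 and Col8a1 lie right of 0 in all 3 comparisons.

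Beside its pluripotency genes, the array of embryonic stem cells showed signal of stromal and contractile genes. Collagens above the floor there included Col1a1 at 10.92, Col1a2 at 10.89 and Col12a1 at 9.18. Of the smooth muscle and pericyte markers 5 of 7 were above the floor, with Acta2 at 11.91 and Tagln at 11.05. Among these 5, Myh11, at 6.46 against a floor of 6.46, and Cspg4 passed it by small margins only. Of the marrow stromal markers 6 of 9 were above the floor. On that array 49.7% of all genes were above the floor, so the stromal count was not far from that share. The summed linear level of the smooth muscle and pericyte list was 6570 in embryonic stem cells, against 9910 in osteoblasts and 359 and 393 in the MSC arrays (with bFGF first). The summed level of the pluripotency list was 7960 in embryonic stem cells, against 907, 736 and 679 in MSC with bFGF, MSC without bFGF and osteoblasts. The epithelial list had 6 of 6 genes above the floor in embryonic stem cells and 1 of 6 on each other array. Macrophage markers summed to 14400 for MSC with bFGF, 2200 for MSC without bFGF and 41300 for osteoblasts, against 5040 for embryonic stem cells, on the linear scale. Whether other cells in that culture contributed collagen transcripts was not tested.

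Chains that assemble with each other did not always differ alike. Col4a1 and Col4a2 stayed within 0.31 of each other in all 6 comparisons, and within 0.03 in MSC with bFGF minus osteoblasts. The type I chains differed unequally: Col1a1 and Col1a2 differed by -3.54 and -1.33 in MSC with bFGF minus osteoblasts, a gap of 2.21, and by -3.37 and -0.82 without bFGF, a gap of 2.55. Between the MSC arrays the type I gap was 0.33, and in osteoblasts minus embryonic stem cells it was 0.42. The type V chains Col5a1 and Col5a2 kept within 0.24 of each other between MSC and osteoblasts, while their gap against embryonic stem cells was 1.43 with bFGF, 1.49 without and 1.67 for osteoblasts. For type VIII the gap in osteoblasts minus embryonic stem cells was 2.75, with Col8a1 higher by 3.67 and Col8a2 by 0.92.

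Genes that modify, secrete and cross-link collagen were taken from lists chosen for their roles. Between the MSC arrays none of 17 modification and folding genes and none of 7 processing and cross-linking genes above the floor was 2-fold different. Of all genes above the floor 4.09% were higher and 0.467% lower with bFGF, so these counts are near that share. In MSC with bFGF minus osteoblasts 5 of 18 modification genes were lower and none higher, against 9.71% and 7.5% of all genes. They included the lysyl hydroxylases Plod2 (-2.07) and Plod1 (-1.53) and the prolyl hydroxylase subunit P4ha3, which was under the floor in MSC (5.65 with bFGF and 5.79 without) and at 8.78 in osteoblasts. In MSC without bFGF 4 were lower and 1, the collagen export factor Mia3, was higher by 1.17, against 13.3% and 8.17% of all genes.

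Of 10 processing and cross-linking genes above the floor, 6 were lower than in osteoblasts in MSC with bFGF and 5 in MSC without bFGF, against 9.71% and 13.3% of all genes. The cross-linking enzyme Lox differed by -4.75 and -4.63, the procollagen C-peptidase Bmp1 by -2.72 and -2.23, and the cross-linking enzyme Loxl3 by -2.32 with bFGF. The peptidase Tll1 was under the floor in MSC (4.57 with bFGF and 5.16 without), while osteoblasts had 7.89 and embryonic stem cells 8.08. The procollagen enhancer Pcolce2 was likewise under the floor in MSC (5.04 and 4.58), while osteoblasts had 6.80 and embryonic stem cells 8.04. The procollagen peptidase Adamts14 was 1.74 higher in MSC without bFGF. Against embryonic stem cells 5 of 10 were lower and 1 higher in each MSC array, where 10.6% of all genes were lower and 11.3% higher with bFGF and 11.8% lower and 10.4% higher without. Those lower included Tll1 and Pcolce2, and Lox (-2.13 with and -2.00 without bFGF). Adamts14 was higher by 1.38 and 2.22. In osteoblasts minus embryonic stem cells 8 of 18 modification genes were higher and none lower, and 4 of 10 processing genes were higher and 1 lower, where 12.3% of all genes were higher and 8.83% lower. Lox was higher by 2.63, P4ha3 stood at 8.78 in osteoblasts and under the floor in embryonic stem cells (6.45), and Pcolce2 was the one that was lower (-1.25).

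Receptors of collagen, degrading enzymes and their inhibitors were the last groups. Of 5 receptor genes above the floor between the MSC arrays, Lair1, an inhibitory collagen receptor of leukocytes, was higher at 7.37 with bFGF against 5.25, under the floor, without, and the endocytic collagen receptor Mrc2 was lower at 7.79 against 8.88. In that comparison 4.09% of all genes above the floor were higher and 0.467% lower. Of 7 receptor genes above the floor, 3 were lower than in osteoblasts in MSC with bFGF and 4 in MSC without bFGF. None was higher. Of all genes 9.71% and 13.3% were lower there and 7.5% and 8.17% higher. The collagen-binding integrin gene Itga11 had levels of 5.22 (with bFGF) and 5.18 (without bFGF) in MSC and 9.02 in osteoblasts, both MSC values being under the floor. Itga1 stood at 4.25, 5.35 and 7.26 in the same order, also under the floor in MSC. Mrc2 differed from osteoblasts by -2.19 and -1.10, and Lair1 by -2.90 without bFGF. Against embryonic stem cells 2 of 5 receptor genes above the floor were higher with bFGF and 1 of 4 without, and none was lower. Of all genes 11.3% and 10.4% were higher there and 10.6% and 11.8% lower. The collagen receptor kinase Ddr2 exceeded its level in embryonic stem cells by 1.53 with bFGF and by 1.98 without. Lair1 was higher by 2.31 with bFGF, its level in embryonic stem cells (5.06) being under the floor. Among 5 degradation genes above the floor between the MSC arrays, the inhibitor Timp3 was lower with bFGF (-1.29) and none was higher. Against this stand 0.467% of all genes lower and 4.09% higher. Against osteoblasts 6 and 5 of 7 degradation genes above the floor were lower in MSC with and without bFGF, against 9.71% and 13.3% of all genes. The lower genes included inhibitors as well as proteases. The protease Mmp2 differed by -2.78 with bFGF and -2.22 without, and the protease Mmp14 by -1.87 and -1.65. Against embryonic stem cells 4 and 3 of 8 were lower, against 10.6% and 11.8% of all genes. The cathepsin Ctsk was under the floor in MSC (4.76 with bFGF and 5.27 without), while osteoblasts had 9.33 and embryonic stem cells 8.04. The collagenase Mmp13 was also under the floor in MSC (6.10 and 5.39), while osteoblasts had 9.50 and embryonic stem cells 9.76. The protease Mmp9 was under the floor in MSC (5.74 and 5.72) and osteoblasts (6.01), while embryonic stem cells had 8.95. Macrophage markers, given here because cells of that lineage also use Ctsk, had median differences of -1.26 and -3.88 from osteoblasts, and their part in these values was not tested.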

How the data were processed

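Gene expression of 4 mouse cell cultures was measured on an Affymetrix whole-transcript array, with 1 array per group. The values the authors deposited are log2 levels per probe set, made with Affymetrix Expression Console and RMA per the submitters' processing notes; their versions are not listed there. The log2 scale was read from the range of the values, 1.40 to 14.28. RMA makes the distributions of arrays alike, so a general shift in transcripts per cell would not show, and low levels compress differences.

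Of 35556 probe sets 21789 had 1 symbol in the platform annotation, and each gene took its probe set with the highest mean. Differences between arrays were computed for 6 pairs of groups, called at 2-fold above the floor, and read against the same counts over all genes. With 1 array per group no test, p-value or SD between cultures exists, and the number of arrays limits the precision. Genes without signal anywhere are named with their range, the others with all 4 levels. From each other list a few genes per comparison were named, and these were not always the ones with the largest differences. Protein sequences were not used here. The chain genes, their classes and all lists were chosen with earlier results of these data known. Alternatives were averaging all probe sets of 1 gene, dropping the floor, a floor at the 75th percentile, centring, a loess curve (span 0.3) and a 1.5-fold threshold. The counting step was tested on simulated data, with changes well past 2-fold in genes well above the floor. That test does not cover differences near 2-fold or levels near the floor. Promoters came from RefSeq for GRCm38.p6. The software was statsmodels 0.14.6, pandas 2.3.3 and numpy 2.4.6 under Python 3.11.15.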

Additional observations from a re-analysis of the deposited data

How the results depend on the processing

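Of 92 values recomputed under an alternative 84 stayed close, counts within 1.5 times and medians within the SD between probe sets, and no median changed sign. At 1.5-fold 2 collagen chain genes were lower in MSC with bFGF than in MSC without bFGF, in place of 1, and 0 were higher. With the floor at the 75th percentile the medians of members above it were -0.45 for MSC with against without bFGF, -2.42 and -2.14 for MSC with and without bFGF minus osteoblasts, -1.42 and -1.10 for the same minus embryonic stem cells, and 1.64 for osteoblasts minus embryonic stem cells, in place of -0.20, -1.02, -0.63, -0.39, -0.11 and 0.56; by construction fewer genes, of higher level, enter. With no floor the median in MSC with bFGF minus osteoblasts was -0.73. Centring and the loess curve moved the counts of lower or higher members by at most 1. Signal near background limits the members with levels close to the floor, and variation between cultures was not measured.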
